A study of Mus musculus with 10 samples.

Results

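Interferon-stimulated genes are the genes that cells switch on when an interferon reaches its receptor, and they were followed here in the mouse brain after experimental stroke. The 38 genes listed were taken by symbol, each read from the brightest of the probe sets that carry that symbol alone. In this way 36 of the 38 were measured, among 18193 genes on the array. Isg15 had only a probe set shared with other symbols and Ifi44 was not in the platform annotation used here, so neither has a value.

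The series held 10 Affymetrix arrays of total RNA from the operated hemisphere of male mice, taken 24 h after surgery. The groups were Hsp72Tg with 3 arrays after middle cerebral artery occlusion (MCAO, which stops the blood flow of a main artery on one side of the brain to model stroke), wild type (WT) after MCAO with 3, Hsp72Tg after sham surgery with 2 and WT after sham surgery with 2. Hsp72Tg mice overexpress Hsp72, the stress-inducible heat shock protein that Hspa1a and Hspa1b encode; the sources used here give neither the promoter and construct of the transgene nor strain or age. Each genotype's sham arrays were the submitters' controls for its MCAO arrays. Values are log2 expression values made with RMA, so a difference of 1 is a doubling. Nothing in the labels ties an array to a single named animal, so p-values measure the spread between these arrays.

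Type I interferons signal through a receptor whose Janus kinases activate a transcription factor complex that includes STAT2 and IRF9 and binds the interferon-stimulated response element (ISRE) in the promoters of target genes. Interferon gamma uses another receptor, and its signal is read at the gamma-activated site (GAS). The targets include transcription factors that extend the response, sensors of foreign RNA and DNA, proteins that block virus entry or copying, and guanosine triphosphate-binding proteins (GTPases) that attack enclosed microbes. In brain, microglia, astrocytes, endothelium and invading blood cells can all make such genes.

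Snap25, a synaptic protein of neurons, read 13.64 to 13.90 on all 10 arrays, which shows neuronal RNA but does not tell the brain region. Array Hsp72Tg MCAO 1 stood apart from the other MCAO arrays, at -12.9 on the first principal component of all genes (50.3% of variance), against 25.8 and 32.3 in the other Hsp72Tg MCAO arrays, 11.7 to 17.4 in WT MCAO and -23.7 to -20.7 in the sham arrays. WT sham 1 also stood apart: Gabra6, a receptor subunit of cerebellar granule cells, read 9.46 there and 4.15 to 4.49 on the other 9 arrays. Pcp2, another cerebellar marker, read 9.87 there and 5.58 to 5.92 on the others. The summed linear values of 8 cerebellar markers were 9013 on WT sham 1 and 3340 to 4745 on the others. This array thus carried a cerebellar signal, whose source was not tested. Values without these arrays stand beside the results below. Hspa1b read 12.05, 13.96 and 13.09 in Hsp72Tg MCAO and 11.85, 12.84 and 12.73 in WT MCAO, against 9.12 and 9.15 in Hsp72Tg sham and 9.38 and 9.48 in WT sham, so the sham arrays did not separate by genotype in the direction of the transgene.

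Many, but not all, of the member promoters searched carry letters through which interferon signals are read. Of the 36 measured members, 27 had an entry among the RefSeq promoters of GRCm38.p6. Each entry ran from 250 bases before to 50 bases after a start listed for the gene, which need not be its outermost. The ISRE core was searched on both strands as GAAA, any 2 bases and GAAA again, and stood in 15 of the 27 genes (55.6%), against 3.99% of all 27025 genes with a promoter. The GAS core TTCNNNGAA, also read on both strands, stood in 10 of 27 (37.0%), against 9.55% of all genes. In Ifitm3 the GAS match shared bases with the second ISRE match, and in Bst2 with the first. The search describes letters only and does not show that a factor binds. Shown here, because they belong to the 4 members with the largest changes among those that hold the core, are 300 bases each, 5′ to 3′ on the gene's own strand, with the ISRE core in capitals (on the reverse strand it reads TTTC, 2 bases, TTTC). They are Ifitm3 at chr7:141010695-141010994 (minus strand), Ifitm2 at chr7:140955912-140956211 (minus), Gbp2 at chr3:142620413-142620712 (plus) and Rsad2 at chr12:26456403-26456702 (minus).
Ifitm3: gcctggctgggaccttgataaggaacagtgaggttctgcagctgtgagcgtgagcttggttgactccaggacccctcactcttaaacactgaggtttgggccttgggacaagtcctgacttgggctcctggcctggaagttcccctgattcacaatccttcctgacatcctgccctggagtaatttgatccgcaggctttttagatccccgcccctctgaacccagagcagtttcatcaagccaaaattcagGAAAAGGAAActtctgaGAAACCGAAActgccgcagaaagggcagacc
Ifitm2: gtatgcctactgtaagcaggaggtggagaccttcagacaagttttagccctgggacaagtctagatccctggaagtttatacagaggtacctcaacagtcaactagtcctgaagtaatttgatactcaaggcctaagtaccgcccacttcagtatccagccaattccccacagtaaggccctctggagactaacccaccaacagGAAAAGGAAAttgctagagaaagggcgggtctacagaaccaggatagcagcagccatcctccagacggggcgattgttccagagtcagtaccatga
Gbp2: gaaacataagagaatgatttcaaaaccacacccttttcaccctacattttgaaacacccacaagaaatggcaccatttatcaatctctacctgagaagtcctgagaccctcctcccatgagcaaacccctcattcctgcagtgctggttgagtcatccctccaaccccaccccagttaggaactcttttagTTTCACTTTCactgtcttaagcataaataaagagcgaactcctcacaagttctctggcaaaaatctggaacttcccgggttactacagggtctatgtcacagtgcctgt
Rsad2: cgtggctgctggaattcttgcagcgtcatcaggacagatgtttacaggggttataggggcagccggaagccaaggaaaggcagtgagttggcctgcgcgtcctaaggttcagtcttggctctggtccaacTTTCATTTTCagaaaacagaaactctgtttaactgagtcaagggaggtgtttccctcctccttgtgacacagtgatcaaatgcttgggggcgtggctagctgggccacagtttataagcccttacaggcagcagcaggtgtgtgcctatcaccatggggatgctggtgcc

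The pair of matches in Ifitm3 lay within the first bases of the gene, beginning at bases 3 and 20. The match of Ifitm2 began 46 bases before the start used for its window. That start lies inside the gene, whose span on the minus strand begins at 140959686. The match of Gbp2 began 59 bases and that of Rsad2 120 bases before the gene's start, both on the reverse strand. The 15 members with a core had a median log2 difference after MCAO of 0.78 (0.11 to 1.79) over both genotypes, and the 12 without one 0.53 (0.30 to 1.17); the ranges overlap and no test was made.

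After MCAO, taken over both genotypes, 5 of the 36 members rose and 0 fell. They were Ifitm1, Ifitm2 and Ifitm3, membrane proteins that stop enveloped viruses from fusing with the cell, the transcription factor Irf8 and Xaf1, a regulator of apoptosis. These calls come from limma with a Benjamini-Hochberg adjusted p under 0.05 over all 18193 genes, where 1.06% of genes rose and 0.407% fell. Over all 36, the 5 included, 34 had a log2 difference above 0 (42.5% of all genes did), Dhx58 and Zbp1 being the exceptions at -0.02, and 30 were higher at an unadjusted p under 0.05 (8.3% of all genes). The members' median difference was 0.57, between -0.02 and 1.79, while that of all genes was -0.03. In bulk tissue, more cells of a kind and more RNA per cell cannot be told apart.

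**Figure D1:**
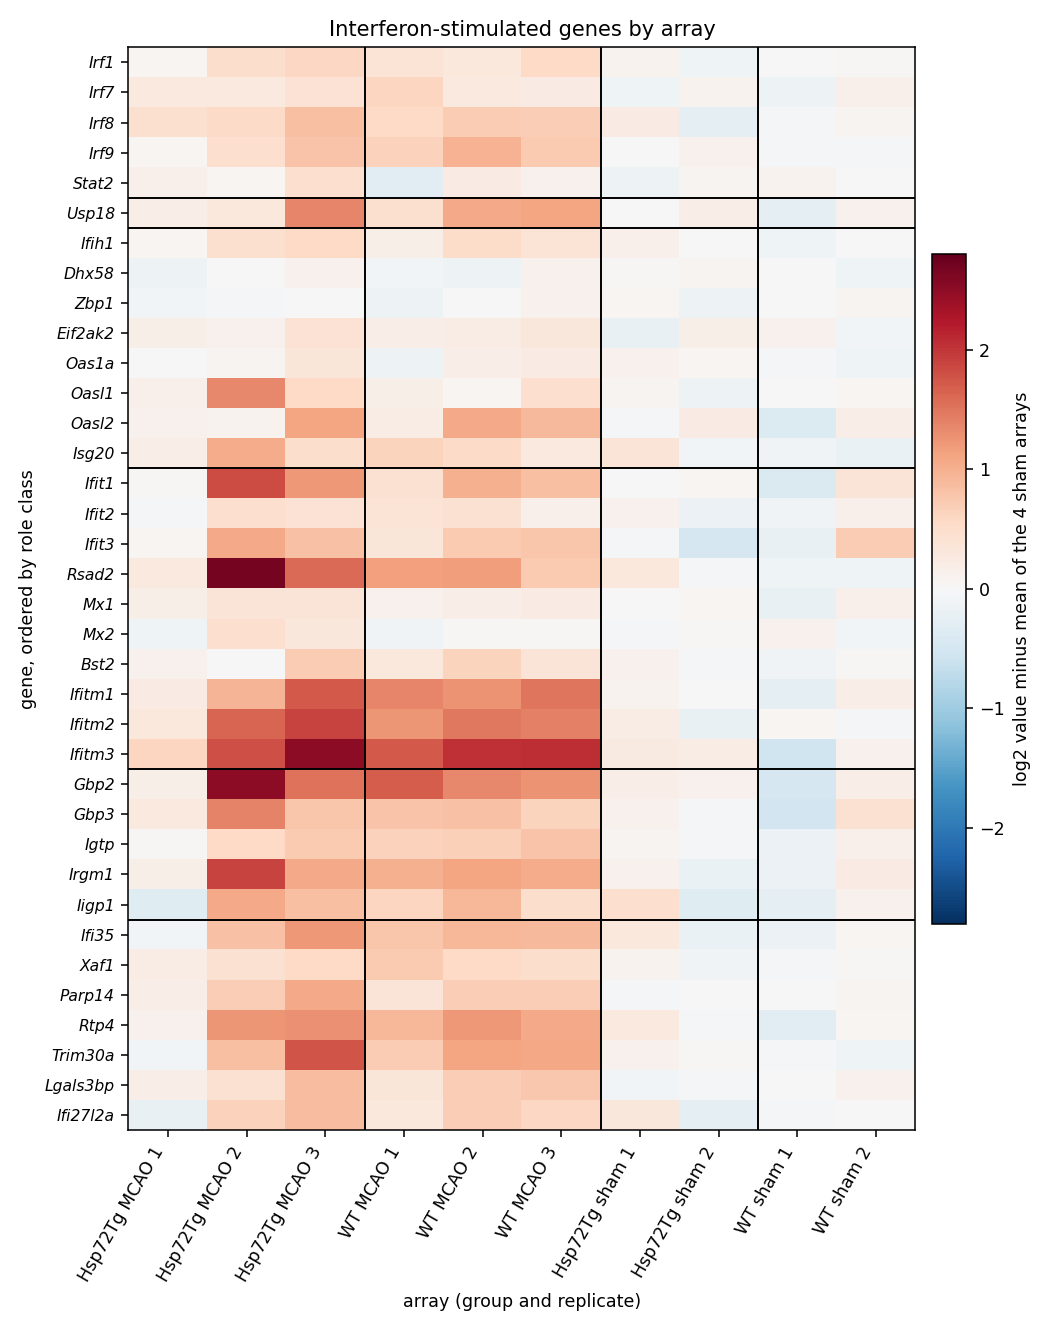
Log2 value of each of the 36 measured interferon-stimulated genes minus its mean over the 4 sham arrays, by array (columns, grouped by genotype and surgery) and gene (rows, ordered by role class). Red is higher and blue lower; the column Hsp72Tg MCAO 3 holds the highest value of 20 members and Hsp72Tg MCAO 2 that of 11, and the column Hsp72Tg MCAO 1 is paler than the other MCAO columns.

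The antiviral effectors held 3 of the 5 members that rose. Ifitm3, on chromosome 7 (141009590 to 141010744, GRCm38.p6), read 9.82, 11.02 and 11.72 in Hsp72Tg MCAO and 10.93, 11.25 and 11.28 in WT MCAO, against 9.46 and 9.41 in Hsp72Tg sham and 8.65 and 9.32 in WT sham. Every MCAO array lay above every sham array, with Hsp72Tg MCAO 1 closest to them. The rise was 1.79 on the log2 scale (SE 0.31, 3.47-fold, adjusted p = 0.0315), with 2.17 (SE 0.44) in WT and 1.42 (SE 0.44) in Hsp72Tg. Ifitm2, on the same chromosome at 140954837 to 140959686, read 8.33, 9.68 and 9.95 in Hsp72Tg MCAO and 9.29, 9.53 and 9.46 in WT MCAO, against 8.26 and 7.83 in Hsp72Tg sham and 8.10 and 7.99 in WT sham. Here too the groups did not overlap, with Hsp72Tg MCAO 1 just above the highest sham array. Ifitm2 rose by 1.33 (SE 0.27, adjusted p = 0.048). Ifitm1, at 140967429 to 140969827, read 8.18, 8.90 and 9.65 in Hsp72Tg MCAO and 9.31, 9.19 and 9.43 in WT MCAO, against 8.02 and 7.92 in Hsp72Tg sham and 7.67 and 8.13 in WT sham. It rose by 1.17 (SE 0.23, adjusted p = 0.0477), again with no overlap between MCAO and sham arrays. The 3 Ifitm genes are paralogs, so probes of one may also bind RNA of another, which was not tested.

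The remaining 7 effectors did not pass. Rsad2, which encodes viperin, an enzyme that makes a chain-terminating nucleotide against viral polymerases, read 7.32, 9.73 and 8.63 in Hsp72Tg MCAO and 8.18, 8.22 and 7.77 in WT MCAO, against 7.33 and 7.01 in Hsp72Tg sham and 6.91 and 6.92 in WT sham. Hsp72Tg MCAO 1 lay inside the sham range and Hsp72Tg MCAO 2 far above all other arrays. Its difference was 1.27 (SE 0.37, adjusted p = 0.108), and its 3 probe sets gave 1.27, 1.19 and 0.46. The Ifit genes encode proteins that bind viral RNA lacking the host's cap marks. Of these, Ifit1 differed by 0.89 (SE 0.31), Ifit3 by 0.63 (SE 0.23) and Ifit2 by 0.30 (SE 0.12). Mx1 and Mx2, dynamin-like GTPases that trap viral particles, differed by 0.24 and 0.11, and Bst2, which encodes tetherin, by 0.36 (SE 0.14). Mx1 was dim, below the lower quartile of all 10 arrays, so little can be read from its value.

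**Figure D2:**
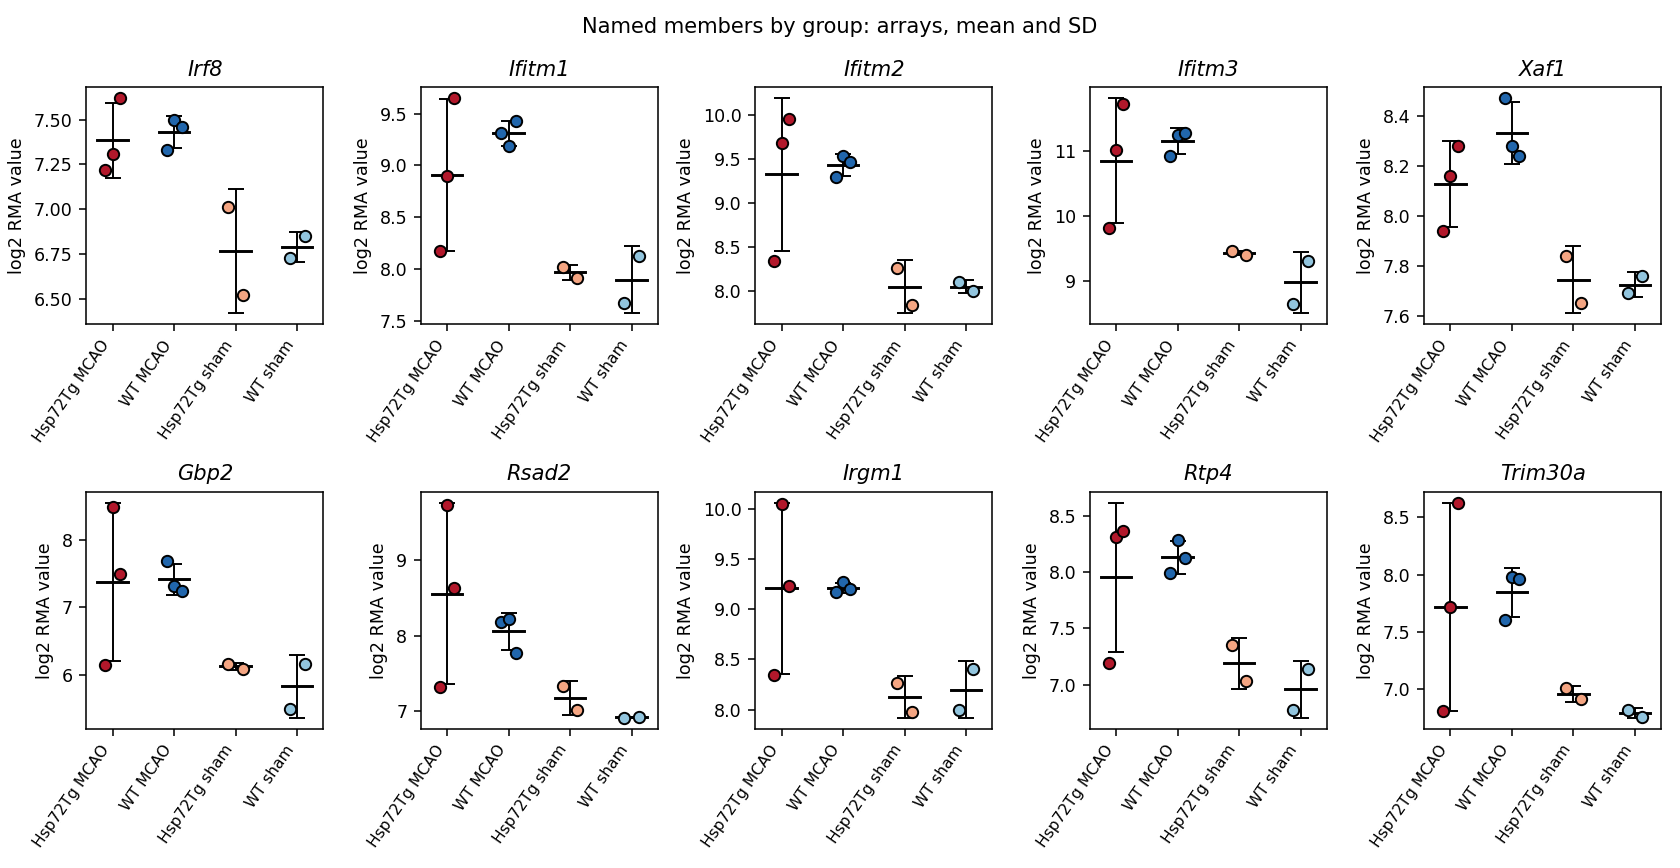
Log2 RMA values (vertical axes) of the 8 members with the largest change and of Irf8 and Xaf1, by group (horizontal axes), with 1 point per array, a bar at the group mean and whiskers of 1 SD. MCAO arrays of Ifitm3 lie between 9.82 and 11.72 and its sham arrays between 8.65 and 9.46; in Gbp2, Rsad2, Irgm1, Rtp4 and Trim30a the lowest Hsp72Tg MCAO point lies among the sham points.

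Among the 5 transcription factors of the list, Irf8 passed. Irf8, needed for macrophage and microglia development and a partner of other IRF proteins at target promoters, lies on chromosome 8 (120736358 to 120756694). It read 7.22, 7.31 and 7.62 in Hsp72Tg MCAO and 7.33, 7.5 and 7.46 in WT MCAO, against 7.01 and 6.52 in Hsp72Tg sham and 6.73 and 6.85 in WT sham. All MCAO arrays were above all sham arrays, and the rise was 0.63 (SE 0.11, adjusted p = 0.0377). Irf9, the DNA-binding subunit of the complex that type I interferons activate, read 7.06, 7.48 and 7.79 in Hsp72Tg MCAO and 7.64, 7.96 and 7.73 in WT MCAO, against 6.99 and 7.11 in Hsp72Tg sham and 6.94 and 6.96 in WT sham. Its difference of 0.61 (SE 0.13, adjusted p = 0.0567) missed the threshold, and Hsp72Tg MCAO 1 overlapped the sham arrays. Irf1, an activator downstream of interferon gamma, differed by 0.39 (SE 0.11), Irf7, the amplifier of interferon alpha genes, by 0.35 (SE 0.10) and Stat2 by 0.12 (SE 0.12). A dimmer probe set of Stat2 gave 0.29.

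Among nucleic acid sensors and the enzymes that act on RNA, 0 of 8 passed, and their median difference of 0.29 (-0.02 to 0.58) was the lowest of the classes. Ifih1, the sensor of long double-stranded RNA known as MDA5, differed by 0.35 (SE 0.11), and the kinase Eif2ak2 (PKR), which halts translation, by 0.23 (SE 0.10). Dimmer probe sets of Eif2ak2 gave 0.07 and 0.17. Zbp1, a sensor of Z-form nucleic acid that can start necroptosis, and Dhx58, the helicase LGP2, each stood at -0.02 (SE 0.08). However, a second probe set of Zbp1 with the same mean of 6.18 gave 0.26, so its lack of a rise depends on the probe set. The dimmer probe sets of Dhx58 gave -0.15 and 0.09. Dhx58 lay below the lower quartile of all arrays and is thus little informative. Of the oligoadenylate synthetase family, Oas1a read 7.88, 7.97 and 8.23 in Hsp72Tg MCAO and 7.74, 8.09 and 8.11 in WT MCAO, against 8.01 and 7.95 in Hsp72Tg sham and 7.86 and 7.76 in WT sham. These groups overlapped, with a difference of 0.11 (SE 0.10). The exonuclease Isg20 differed by 0.52 (SE 0.16), Oasl2 by 0.58 (SE 0.24) and Oasl1 by 0.46 (SE 0.20). Usp18, the protease that removes ISG15 from proteins and damps the interferon receptor, differed by 0.74 (SE 0.24, adjusted p = 0.136).

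The 5 interferon-inducible GTPases had the highest median of the classes with more than 1 gene, 0.78 (0.57 to 1.42), and 0 passed. Gbp2, a guanylate-binding protein that coats the vacuoles of microbes, read 6.15, 8.49 and 7.49 in Hsp72Tg MCAO and 7.68, 7.32 and 7.24 in WT MCAO, against 6.16 and 6.09 in Hsp72Tg sham and 5.50 and 6.16 in WT sham. Hsp72Tg MCAO 1 read like the sham arrays and the other 5 MCAO arrays lay more than 1 unit above them. The difference was 1.42 (SE 0.37, adjusted p = 0.0858), and a second probe set gave 1.52. The probe set used is of the kind that may bind related sequences, by its identifier. Irgm1, which regulates the immunity-related GTPases and autophagy, read 8.34, 10.05 and 9.23 in Hsp72Tg MCAO and 9.17, 9.27 and 9.20 in WT MCAO, against 8.27 and 7.98 in Hsp72Tg sham and 8.0 and 8.40 in WT sham. It differed by 1.05 (SE 0.27, adjusted p = 0.0834), and Hsp72Tg MCAO 1 fell within the sham range. Gbp3 differed by 0.78 (SE 0.23), Iigp1 by 0.60 (SE 0.27; a dimmer probe set gave 0.25) and Igtp by 0.57 (SE 0.13).

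In the last class, of 7 other induced genes, Xaf1 passed. Xaf1 lies on chromosome 11 (72301461 to 72313733) and encodes a protein known in human cells as an antagonist of the apoptosis inhibitor XIAP. It read 7.94, 8.16 and 8.28 in Hsp72Tg MCAO and 8.47, 8.28 and 8.24 in WT MCAO, against 7.84 and 7.65 in Hsp72Tg sham and 7.69 and 7.76 in WT sham. All MCAO arrays were above the sham arrays, and the rise was 0.49 (SE 0.09, adjusted p = 0.036), while its other, dimmer probe set gave 0.07. Rtp4, a chaperone that helps receptors to the cell surface, read 7.19, 8.31 and 8.36 in Hsp72Tg MCAO and 7.99, 8.28 and 8.12 in WT MCAO, against 7.35 and 7.03 in Hsp72Tg sham and 6.78 and 7.14 in WT sham, a difference of 0.97 (SE 0.22, adjusted p = 0.0622). A dimmer probe set of Rtp4 gave 0.24. Trim30a, a ubiquitin ligase family member that restrains NF-kB signalling in mice, read 6.81, 7.72 and 8.63 in Hsp72Tg MCAO and 7.60, 7.98 and 7.96 in WT MCAO, against 7.01 and 6.91 in Hsp72Tg sham and 6.82 and 6.76 in WT sham, a difference of 0.91 (SE 0.28, adjusted p = 0.125). In both genes Hsp72Tg MCAO 1 overlapped the sham arrays and the other 5 MCAO arrays did not. Ifi35 differed by 0.76 (SE 0.22; its 3 probe sets gave 0.76, 0.26 and 0.18), Parp14 by 0.61 (SE 0.15; its second probe set gave 0.10), the secreted galectin ligand Lgals3bp by 0.54 (SE 0.13) and Ifi27l2a by 0.47 (SE 0.20).

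Within each genotype the members leaned the same way, and 0 passed. In Hsp72Tg, 35 of 36 members were above 0 (44.4% of all genes), 18 were higher at an unadjusted p under 0.05 (4.73% of all genes) and the median was 0.44; the lowest adjusted p in limma was 0.321, and 0.0165% of all genes rose. In WT, 33 of 36 were above 0 (43.3% of all genes), 22 were higher at an unadjusted p under 0.05 (5.71%) and the median was 0.61; the lowest adjusted p was 0.141, and 0.0495% of all genes rose. Single arrays moved the unadjusted counts. In Hsp72Tg the count was 28 without Hsp72Tg MCAO 1 (8.72% of all genes), 9 without Hsp72Tg MCAO 2 (3.4%), 9 without Hsp72Tg MCAO 3 (3.69%), 8 without Hsp72Tg sham 1 (3.49%) and 4 without Hsp72Tg sham 2 (5.37%). In WT it fell to 8 once WT sham 1 was left out (2.97%), to 12 when WT MCAO 2 was left out (4.57%) and to 14 when WT MCAO 3 was (4.37%). The arrays of 14 members did not overlap in Hsp72Tg, with all 3 MCAO values above both sham values (38.9%, against 9.05% of all genes). In WT this held for 27 members (75%, against 16.4% of all genes), the exceptions being Stat2, Dhx58, Zbp1, Oas1a, Oasl1, Ifit2, Ifit3, Mx1 and Mx2. Over both genotypes 9 members (25%) had all 6 MCAO values above all 4 sham values, against 3.19% of all genes.

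**Figure D3:**
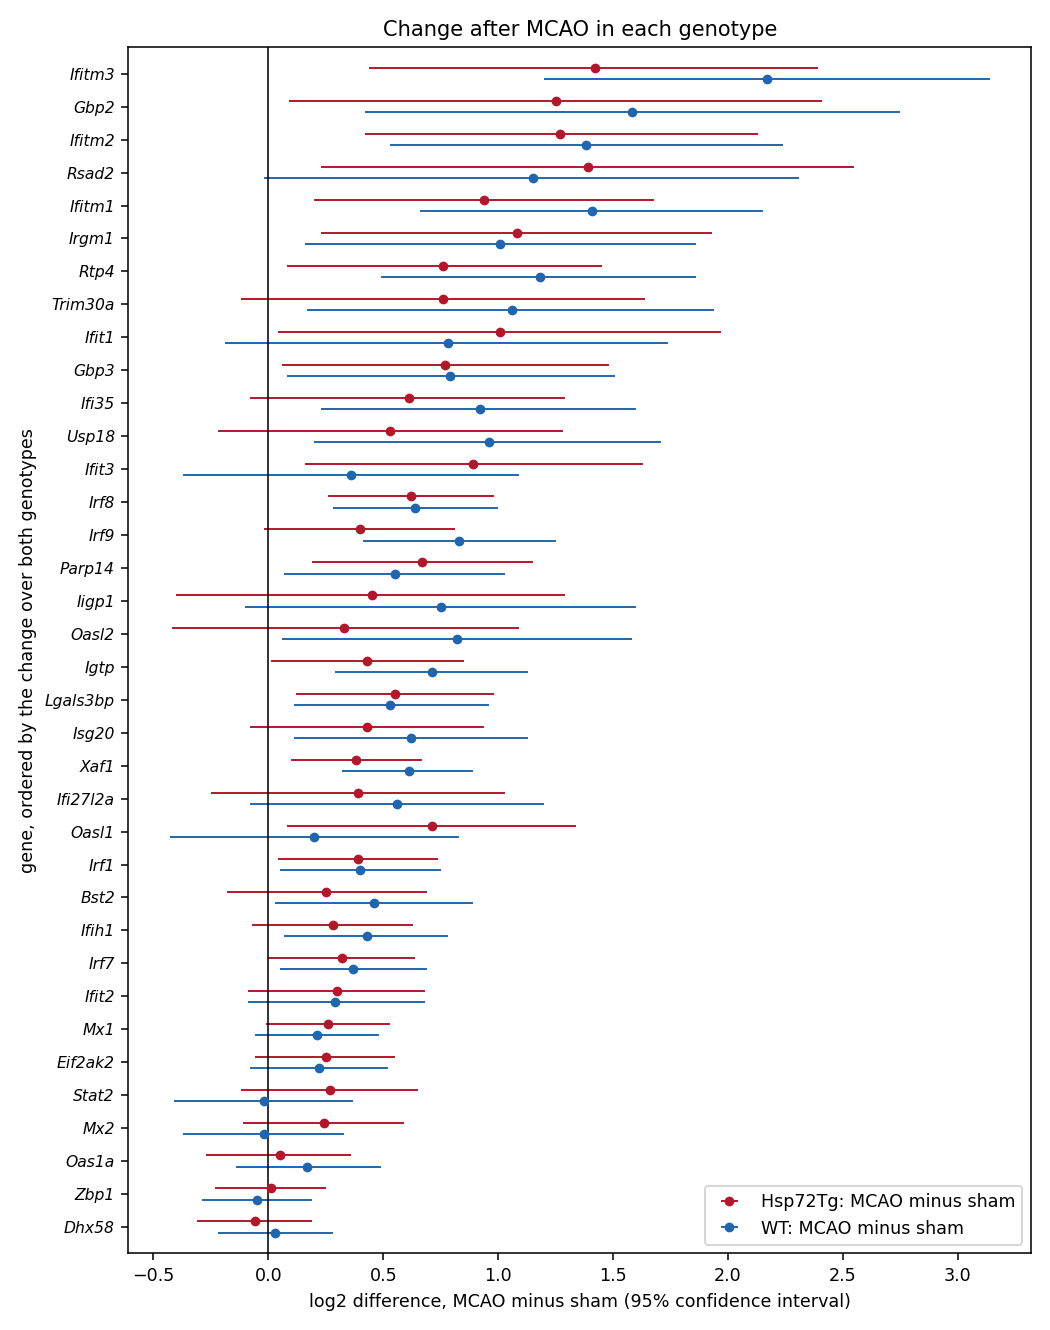
Log2 difference, MCAO minus sham, of each member in Hsp72Tg and in WT (horizontal axis), with 95% confidence intervals from limma; genes run down the page in the order of their change over both genotypes. The intervals of the 2 genotypes overlap for every member, and Ifitm3 shows 1.42 in Hsp72Tg and 2.17 in WT.

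The genotypes were next compared with each other, to ask whether Hsp72 overexpression went with another interferon-gene level or response. No member passed in limma, and 0.0% of the 18193 genes passed in any of the 3 comparisons. For the difference of the MCAO changes, 0 of 36 members reached an unadjusted p under 0.05 (1.75% of all genes did), 13 were above 0 (47.4% of all genes) and the median was -0.1, between -0.75 for Ifitm3 and 0.53 for Ifit3. For Hsp72Tg minus WT after MCAO, 0 members reached it (2.68% of all genes) and the median was -0.04 (-0.40 to 0.50). After sham surgery 0 members reached it (1.56% of all genes) and the median was 0.06 (-0.50 to 0.45). After MCAO no member had all Hsp72Tg arrays above all WT arrays (2.75% of all genes had). After sham surgery 8 members had both Hsp72Tg arrays above both WT arrays (12.8% of all genes), and 1 had both below (14.2% of all genes). Leaving out 1 array could turn the sign of these medians. Without Hsp72Tg MCAO 1, Hsp72Tg minus WT after MCAO had a median of 0.17, with 27 members above 0 (44.3% of all genes), 5 higher at an unadjusted p under 0.05 (3.41%) and 9 whose Hsp72Tg arrays all lay above the WT arrays (9.65% of all genes). Without Hsp72Tg MCAO 3 its median was -0.12, with 8 members lower at an unadjusted p under 0.05 (4.33%). The difference of the MCAO changes likewise had a median of 0.10 without Hsp72Tg MCAO 1, with 24 members above 0 (47% of all genes) and 2 higher at an unadjusted p under 0.05 (1.56%), and a median of -0.16 without Hsp72Tg MCAO 3, with 5 lower (2.37%). Without Hsp72Tg sham 1 that median was 0.01. After sham surgery the median was -0.03 without WT sham 1. In all these fits 0 members passed over all genes in limma.

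The members with the smallest p in these comparisons show what the arrays can resolve. Irf9 changed after MCAO by 0.40 (SE 0.19) in Hsp72Tg and 0.83 (SE 0.19) in WT, a difference of -0.43 (interval -1.02 to 0.16, adjusted p = 1 in limma), and Hsp72Tg minus WT after MCAO was -0.34 (interval -0.71 to 0.04). For Xaf1 the difference of changes was -0.22 (interval -0.62 to 0.18). Oasl1, an inhibitor of Irf7 translation in mice, read 6.04, 7.24 and 6.45 in Hsp72Tg MCAO and 6.07, 5.95 and 6.36 in WT MCAO, against 5.97 and 5.76 in Hsp72Tg sham and 5.90 and 5.96 in WT sham. Its difference of changes, 0.51 (interval -0.38 to 1.40), goes with the single value of 7.24 in Hsp72Tg MCAO 2. Ifit3 read 7.83, 8.83 and 8.59 in Hsp72Tg MCAO and 8.10, 8.50 and 8.54 in WT MCAO, against 7.74 and 7.30 in Hsp72Tg sham and 7.56 and 8.48 in WT sham; after sham surgery Hsp72Tg minus WT was -0.50 (interval -1.30 to 0.30). Isg20 read 6.13, 6.98 and 6.44 in Hsp72Tg MCAO and 6.56, 6.49 and 6.21 in WT MCAO, against 6.30 and 5.87 in Hsp72Tg sham and 5.85 and 5.76 in WT sham, a sham difference of 0.28 (interval -0.28 to 0.84). These arrays overlapped between genotypes after MCAO. That of Oas1a was 0.17 (interval -0.17 to 0.52). For Ifitm3 the difference of changes was -0.75 with an interval of -2.13 to 0.63, so genotype differences of over 2 units lay within the error. Missing the threshold does not show that the genotypes responded alike.

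The 3 Hsp72Tg MCAO arrays differed from each other more than the WT MCAO arrays did. The SD over replicates was wider in Hsp72Tg MCAO than in WT MCAO for 32 of 36 members (88.9%, against 66.2% of all genes), with median SDs of 0.43 and 0.18. Relative to the sham mean, the median member stood at 0.14, 0.54 and 0.81 in Hsp72Tg MCAO 1, 2 and 3 and at 0.43, 0.68 and 0.66 in WT MCAO, against 0.10 and -0.03 in Hsp72Tg sham and -0.10 and 0.07 in WT sham. Members above all 4 sham arrays numbered 14, 29 and 35 in the Hsp72Tg MCAO arrays and 27, 32 and 33 in the WT MCAO arrays. Of all genes, 16.8%, 23.5% and 26.2% lay above all sham arrays in Hsp72Tg MCAO and 27.2%, 19.5% and 22.6% in WT MCAO. Hsp72Tg MCAO 1 gave the lowest MCAO value for 27 of 36 members (75%, against 20.2% of all genes). Hspa1b on that array, 12.05, was nevertheless well above the sham range, and so was Gfap, the astrocyte filament gene, at 12.08 against 10.05 to 10.77 in the sham arrays.

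Leaving out Hsp72Tg MCAO 1 changed the counts. This array stands apart on the first principal component of all genes, where the other MCAO arrays lie away from the sham arrays. Hsp72Tg MCAO 1 lay closest to the sham arrays there and gave the lowest MCAO value for 75% of members. Dropping it removes the array that responded least, so the larger counts that follow are not stronger evidence of a rise. In the fit without this array 19 members rose in Hsp72Tg (3.39% of all genes), 11 in WT (1.96%) and 26 over both genotypes (6.02%). The medians were 0.70, 0.61 and 0.66. Ifitm2 then rose by 1.57 (SE 0.11), Ifitm3 by 2.05 (SE 0.17) and Gbp2 by 1.72 (SE 0.21). Rsad2 rose by 1.58 (SE 0.2), Irgm1 by 1.26 (SE 0.16) and Rtp4 by 1.16 (SE 0.11). Arrays did not overlap for 29 members in Hsp72Tg (80.6%, against 18.9% of all genes) and for 22 over both genotypes (61.1%, against 6.98%). Without Hsp72Tg MCAO 1 and WT sham 1 together, 14 rose in Hsp72Tg (2.54% of all genes), 3 in WT (0.704%) and 18 over both (3.69%). With array weights 0 rose in Hsp72Tg (0.0275% of all genes), 22 in WT (4.71%) and 18 over both (3.84%). With only the groups compared in the fit, 0 rose in Hsp72Tg (0.0% of all genes) and 17 in WT (3.71%). The calls over both genotypes also needed most other arrays: 0 members passed without WT MCAO 1, 2 or 3 or without any 1 sham array (0.044% to 0.275% of all genes rose in these fits), 2 (Ifitm3 and Irf8) without Hsp72Tg MCAO 2 (0.967%) and 2 (Ifitm1 and Ifitm3) without Hsp72Tg MCAO 3 (0.813%). The sizes moved less, with Ifitm3 between 1.58 and 2.05 and Irf8 between 0.50 and 0.75 over these 10 fits.

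**Figure D4:**
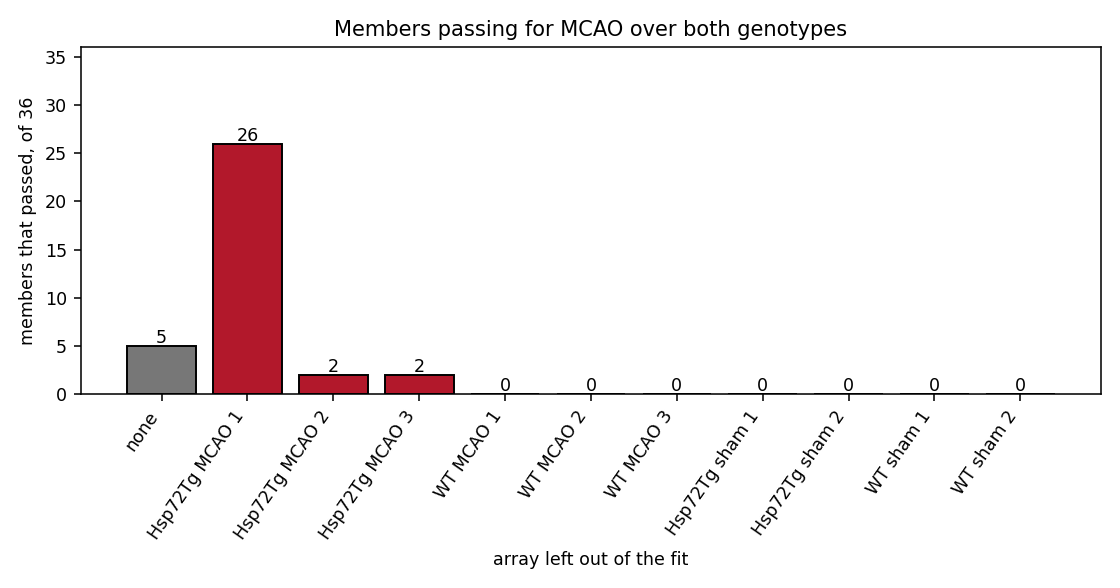
Number of the 36 measured members that passed for MCAO over both genotypes (vertical axis, limma, adjusted p under 0.05) with all 10 arrays and with each array left out in turn (horizontal axis). The count was 5 with all arrays, 26 without Hsp72Tg MCAO 1 and 0 to 2 without any other array.

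The other Hsp72Tg MCAO arrays were both high but for different members. Hsp72Tg MCAO 3 gave the highest of the 10 values for 20 members and Hsp72Tg MCAO 2 for 11 (12.2% and 13.2% of all genes). Relative to the sham mean, Rsad2 stood at 2.69 in Hsp72Tg MCAO 2 and 1.59 in Hsp72Tg MCAO 3, Gbp2 at 2.51 and 1.51, Irgm1 at 1.89 and 1.06 and Oasl1 at 1.34 and 0.55. The reverse held for Usp18 at 0.29 and 1.37, Oasl2 at 0.09 and 1.10, Trim30a at 0.85 and 1.75, Ifitm1 at 0.96 and 1.71 and Bst2 at 0.02 and 0.72. Thus 7 members were over 0.5 higher in Hsp72Tg MCAO 2 and 6 over 0.5 higher in Hsp72Tg MCAO 3 (4.35% and 5.44% of all genes). The 2 arrays are single values of 1 group, so these differences carry no test.

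**Figure D5:**
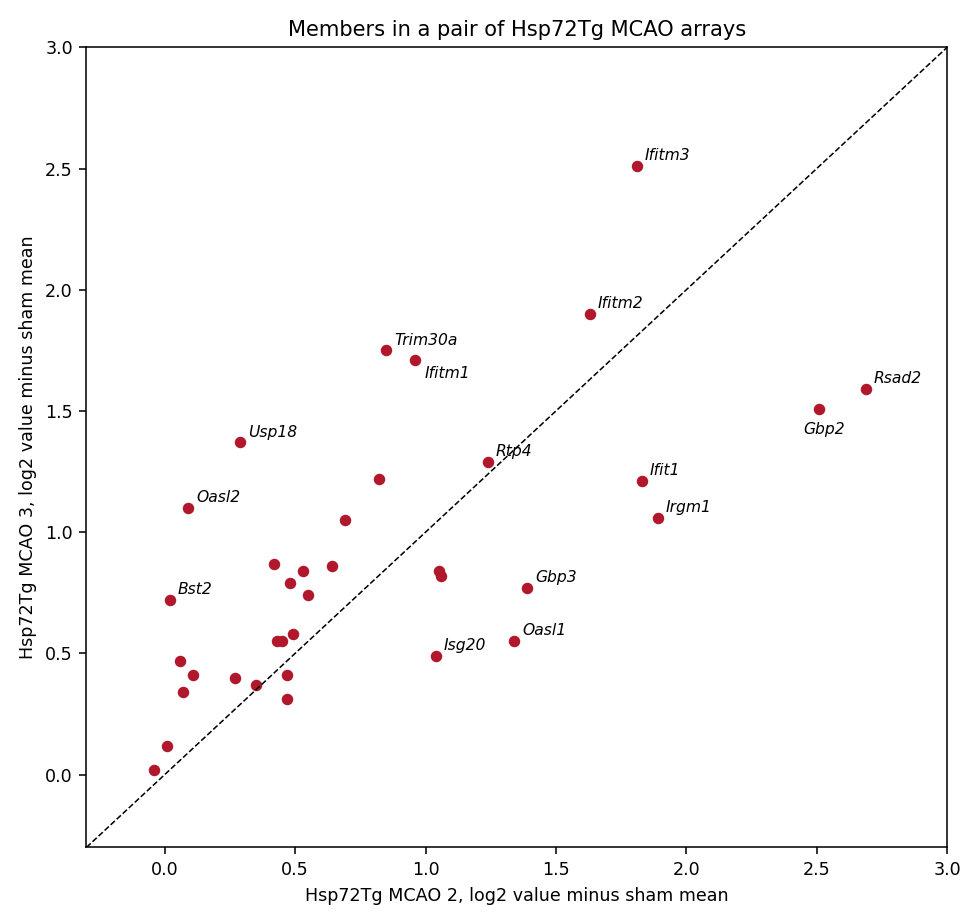
Each of the 36 measured members in Hsp72Tg MCAO 2 (horizontal axis) and Hsp72Tg MCAO 3 (vertical axis), as log2 value minus the mean of the 4 sham arrays; the dashed line marks equal values. Rsad2, Gbp2, Irgm1 and Oasl1 lie below the line, and Usp18, Oasl2, Trim30a and Ifitm1 above it.

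Markers of blood cells also differed between these arrays, and not all in step with the members. The summed linear values of 8 of 9 listed neutrophil markers were 513, 4192 and 1744 in the Hsp72Tg MCAO arrays and 1259 to 2057 in WT MCAO, against 579 to 618 in Hsp72Tg sham and 443 to 837 in WT sham. S100a8, a granule protein of neutrophils, read 6.2, 10.88 and 9.46 in Hsp72Tg MCAO and 8.89 to 9.72 in WT MCAO, against 5.53 to 7.67 in the sham arrays. The first of these lay within the sham range. S100a8 and S100a9 made up 82.2% of the neutrophil sum on Hsp72Tg MCAO 2. Ngp, at 5.6, 8.46 and 5.99 in Hsp72Tg MCAO, and Mmp8, at 4.7, 6.46 and 5.52, were also highest on Hsp72Tg MCAO 2. Mmp8 was dim, below the lower quartile on 9 arrays. Camp and Csf3r hardly differed: Camp read 5.93, 5.97 and 5.82 and Csf3r 7.05, 6.92 and 7.34 in Hsp72Tg MCAO. Over both genotypes 0 of the 8 passed, with a median of 0.22 (-0.11 to 2.49). The sums of 7 of 8 listed monocyte and macrophage markers were 898, 749 and 1980 in Hsp72Tg MCAO and 1124 to 1784 in WT MCAO, against 731 to 937 in Hsp72Tg sham and 721 to 738 in WT sham. Arg1, an enzyme of alternatively activated macrophages, read 4.61, 4.85 and 8.42 in Hsp72Tg MCAO and 5.60 to 7.59 in WT MCAO, against 4.33 to 4.72 in the sham arrays. Over both genotypes Arg1 differed by 1.88 (SE 0.70), F13a1 by 1.04, Lyz2 by 0.76 and Cd163 by 0.52. Mrc1 differed by 0.32, Ccr2 by 0.12 and the dim Ms4a7 by -0.07, and no marker of this list passed. Lyz2, the brightest of them, read 8.46, 7.79 and 9.75 in Hsp72Tg MCAO and 7.96 to 8.74 in the sham arrays. On Hsp72Tg MCAO 2 the macrophage sum thus lay within the sham range although the median member stood at 0.54. The neutrophil sum was highest on the array with the highest Rsad2 and Gbp2, and the macrophage sum was highest on the array with the highest Usp18, Oasl2 and Trim30a; their part in these values was not tested. Lymphocyte markers (7 of 9 measured; Cd3g, Nkg7 and Ms4a1 below the lower quartile of all arrays) summed to 570 to 644 in Hsp72Tg MCAO and 545 to 605 in WT MCAO, against 630 to 650 in Hsp72Tg sham and 671 to 698 in WT sham. Microglia markers (6 of 7) summed to 3235 to 4021 in Hsp72Tg MCAO and 3731 to 3998 in WT MCAO, against 3930 to 3985 in Hsp72Tg sham and 3158 to 4503 in WT sham. Within them P2ry12 differed by -1.67 (SE 0.37, adjusted p = 0.0586) and Gpr34 by -1.30 (SE 0.42, adjusted p = 0.136), and 0 of 6 passed, with a median of -0.31. Siglech differed by -0.35 and Tmem119 by -0.27, while Csf1r and Cx3cr1 went the other way, at 0.15 and 0.09. The microglia sum mostly follows Csf1r, the brightest of them at 10.98 to 11.48 over all arrays. Endothelial markers (6 of 6) summed to 2248 to 3658 in Hsp72Tg MCAO and 2971 to 3414 in WT MCAO, against 2926 to 2998 in Hsp72Tg sham and 2797 to 2880 in WT sham. Markers of plasmacytoid dendritic cells, a main source of type I interferon in infection, were all measured (6 of 6, with Ccr9 below the lower quartile of all arrays). They summed to 6421 to 7155 in Hsp72Tg MCAO and 6781 to 7492 in WT MCAO, against 5794 to 7689 in Hsp72Tg sham and 6942 to 7028 in WT sham. This sum mostly follows Tcf4 and Pacsin1, which read 11.51 to 12.02 and 11.32 to 12.07 over all arrays. The other markers read at most 7.55, and Bst2 among them is itself a member. The sum thus says little about these cells.

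The rest of the pathway was read over both genotypes from further lists, in a fit where 1.06% of all genes rose. Of 10 measured interferon ligand genes 0 passed, with a median of -0.01 (-0.09 to 0.10), and 7 of them, among them Ifnb1 and Ifng, lay below the lower quartile of all arrays. Such dim probe sets say little about whether the ligands were made. Among 15 receptor and signal transduction genes, 2 rose. Socs3, an inhibitor of Janus kinases that STAT3 induces, read 8.02, 10.38 and 9.87 in Hsp72Tg MCAO and 9.63, 9.42 and 9.73 in WT MCAO, against 7.13 and 7.24 in Hsp72Tg sham and 7.13 and 7.15 in WT sham, a rise of 2.35 (SE 0.37, adjusted p = 0.0274). Stat3, which chiefly serves cytokines of the interleukin-6 family, rose by 1.17 (SE 0.16, adjusted p = 0.0176). The median of this list was 0.08. Among 13 upstream sensors and adaptors Myd88, the adaptor of Toll-like receptors, rose by 1.03 (SE 0.16, adjusted p = 0.0251), with a list median of 0.31.

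Of 33 further interferon-induced genes measured, 2 rose (1.06% of all genes did) and 26 were above 0 (42.5% of all genes), with a median of 0.14. Cxcl10, the chemokine that draws activated T cells, read 7.26, 9.66 and 8.86 in Hsp72Tg MCAO and 7.44, 7.86 and 7.81 in WT MCAO, against 6.09 and 6.0 in Hsp72Tg sham and 5.79 and 5.79 in WT sham. All MCAO arrays lay above the sham arrays by 1 unit or more, Hsp72Tg MCAO 2 being the highest, and the rise was 2.23 (SE 0.37, adjusted p = 0.0283). Ifi30, a lysosomal thiol reductase of antigen-presenting cells, rose by 1.03 (SE 0.20, adjusted p = 0.0448). Within Hsp72Tg and within WT, 0 genes of these lists passed.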

How the data were processed

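The deposited table holds log2 expression values for each probe set; the submitters' processing notes name RMA, which subtracts background, normalizes between arrays and summarizes probes. No version or setting is given in the sources used here. The table held 45101 probe sets, of which 64 controls were left out, and 34945 of the rest had 1 gene symbol. No detection flags were used, so the number of arrays limits precision.

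Tests used limma 3.58.1 in R 4.3.3 with a mean per group over all 10 arrays (6 residual degrees of freedom), two-sided, with Benjamini-Hochberg adjustment over 18193 genes. Errors are SEs of the contrast and intervals are 95%. Replicate numbers did not pair arrays: deviations of same-numbered arrays correlated between -0.156 and 0.249.

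The members and lists were chosen with earlier results of these data known. Values in every array are given for members that passed, the 8 with the largest change over both genotypes and the 3 with the smallest p in each genotype comparison. Alternatives were other normalizations, filters, weights and probe set rules and leaving out arrays. The fit without both arrays that stand apart was chosen after seeing the data. Hsp72Tg MCAO 1 was also singled out after seeing the data, by its place on an axis that separates the other MCAO arrays from sham arrays. Marker sums add linear values.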

Additional observations from a re-analysis of the deposited data

How the results depend on the processing

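Among the counts and medians that answer a comparison, 202 values under an alternative stayed near the main one (counts within 1.5 times, medians within the 0.22 spread between replicates) and 25 moved. The median member change kept its sign for MCAO in each genotype and over both. It changed sign in 5 of 19 alternatives for Hsp72Tg minus WT after MCAO (-0.12 to 0.17), in 3 of 18 for the difference of the MCAO changes (-0.22 to 0.16) and in 2 of 19 after sham surgery (-0.03 to 0.13). With MCAO over both genotypes the 5 members that passed became 3 after quantile normalization (Ifitm3, Irf8 and Xaf1; 0.973% of all genes rose), 2 when the probe sets of a gene were averaged (Ifitm3 and Irf8; 0.775%), 18 with array weights and 18 without both arrays that stand apart. Leaving out 1 array at a time gave 0 to 26. With the replicate block 0 passed (0.0934% of all genes, lowest adjusted p 0.0965 in limma), and it gave 0 in each genotype as well. Whether the replicate numbers pair the arrays is not known. In Hsp72Tg the count was 0 to 19 with 1 array left out and 14 without both arrays, where the median was 0.70; with 1 array left out the median ran from 0.30 to 0.70. In WT the count was 17 with only the groups compared, 22 with array weights, 3 without both arrays and 0 to 11 with 1 array left out, where 3 (Ifitm1, Ifitm3 and Irf9) passed without Hsp72Tg MCAO 3. The median difference of the MCAO changes was 0.16 without both arrays, against -0.1 with all. The cause of these shifts was not tested; the SE of Ifitm3 over both genotypes was 0.17 without Hsp72Tg MCAO 1 and 0.31 with all arrays. For the 15 members with values in every array, in the comparisons chosen for them, 586 values kept their call, 51 gained it and 52 lost it. Of these values 0 changed sign, but the members were mostly picked for a large change or small p. Other members did change sign with 1 array left out. Stat2 in WT ran from -0.13 to 0.14 and Zbp1 over both genotypes from -0.07 to 0.03. The promoter share also moved with the GAS core in place of the ISRE core. The fit without both arrays was among the fits behind the counts, medians and sign changes, but not among those behind the 586, 51 and 52 values. The fit of only the groups compared has no value for the comparisons that use all 4 groups. Dim members, above all Mx1 and Dhx58, are limited by signal near the low end of the array.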

Other observations

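Ifi202b, a member of the interferon-induced HIN-200 family of DNA-binding proteins, was uneven within both MCAO groups. It read 4.43, 7.30 and 8.60 in Hsp72Tg MCAO and 9.43, 4.69 and 8.60 in WT MCAO, against 4.53 and 4.45 in Hsp72Tg sham and 4.66 and 4.63 in WT sham. The difference over both genotypes was 2.61 (SE 0.97, adjusted p = 0.186 in limma). Array WT MCAO 2, at 4.69, read like the sham arrays for this gene while 32 of the 36 members lay above all sham arrays there. It was named after its values were seen. Of 6 measured endothelial markers 2 rose in the same fit (1.06% of all genes did), Pecam1 by 1.0 (SE 0.18, adjusted p = 0.035) and Cldn5 by 0.65 (SE 0.12, adjusted p = 0.036). Cdh5 stood at 1.13, Flt1 at 0.60, Tek at -0.25 and Slco1a4 at -0.79, and these 4 did not pass.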
